A study of Mus musculus with 2 samples.

Results

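Ccl19, Ccl21a, Cxcl13 and Cxcl12 encode chemokines of lymphoid tissue, and Ccr7, Cxcr5 and Cxcr4 encode receptors for them. The 7 genes were chosen by symbol, with earlier results of these data known. They come from the 32245 symbols listed in 2 droplet single-cell libraries of mouse periodontium from the maxilla. That is the gum, ligament and bone around the upper teeth. The libraries are titled RP and 377P. The series title names diabetic periodontitis and its resolution, but no label explains the titles or gives a strain, an age, a treatment, a time or a number of animals. Neither library is therefore called a control, ratios are RP over 377P, and with 1 library per title a difference compares these libraries and not conditions. Periodontium was represented by epithelial cells, fibroblasts with a ligament-type subset, vascular cells and immune cells. Gland epithelial cells were also present, 1564 in RP and 218 in 377P.

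Chemokines are small secreted proteins that bind G protein-coupled receptors and guide cell movement. Ccl19 and Ccl21a are ligands of Ccr7, which brings naive T cells and mature dendritic cells to the T cell zones of lymph nodes. Lymphatic vessels make Ccl21, the protein of Ccl21a and its copies, and mature dendritic cells enter them by it. Cxcl13 is the ligand of Cxcr5 and draws B cells into follicles. Cxcl12 is the ligand of Cxcr4, which is carried by many blood cells, and is made widely by fibroblasts and endothelium. In chronically inflamed tissue, several of these genes are also used outside lymph nodes, where lymphocytes gather in aggregates.

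On the mouse genome build GRCm38 (mm10), Ccl19 (ENSMUSG00000071005) lies at chr4:42754525-42756577 and Ccl21a (ENSMUSG00000094686) at chr4:42772860-42773993, both on the minus strand. Cxcl13 (ENSMUSG00000023078) lies at chr5:95956951-95961068 and Cxcl12 (ENSMUSG00000061353) at chr6:117168535-117181367, both on the plus strand. The receptor genes are on the minus strand, Ccr7 (ENSMUSG00000037944) at chr11:99144196-99155077, Cxcr5 (ENSMUSG00000047880) at chr9:44511787-44561877 and Cxcr4 (ENSMUSG00000045382) at chr1:128588199-128592293. These spans are whole genes, exons and introns together. Ccl19 and Ccl21a each have a second identifier on an unplaced scaffold, and all entries of the copies Ccl21b and Ccl21c were at 0 UMIs. The 402 bases of the Ccl21b transcript aligned to the 870 bases of that of Ccl21a with 2 mismatches, so reads from most of that stretch could come from either copy and the Ccl21a values may include some of Ccl21b.

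The 250 bases before the RefSeq start of the 4 ligand genes (build GRCm38.p6) are shown, 5′ to 3′ on the gene's strand, because Ccl19, Cxcl13 and Cxcl12 were raised together in a subset of fibroblasts and Ccl21a, the neighbour of Ccl19, was not. Capitals mark matches, on either strand, to a loose kappaB-type motif of 3 G, any 5 bases and 2 C, a form of the site bound by NF-kappaB factors. The windows are chr4:42756366-42756615 for Ccl19, chr4:42773992-42774241 for Ccl21a, chr5:95956689-95956938 for Cxcl13 and chr6:117168285-117168534 for Cxcl12. Most of the Ccl19 window lies inside the gene span given above, because the GENCODE start of that span differs from the RefSeq start.
Ccl19: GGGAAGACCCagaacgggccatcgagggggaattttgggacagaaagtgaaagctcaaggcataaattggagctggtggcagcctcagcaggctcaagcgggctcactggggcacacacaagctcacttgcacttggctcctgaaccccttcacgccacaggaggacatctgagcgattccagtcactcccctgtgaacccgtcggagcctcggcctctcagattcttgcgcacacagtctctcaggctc
Cxcl13: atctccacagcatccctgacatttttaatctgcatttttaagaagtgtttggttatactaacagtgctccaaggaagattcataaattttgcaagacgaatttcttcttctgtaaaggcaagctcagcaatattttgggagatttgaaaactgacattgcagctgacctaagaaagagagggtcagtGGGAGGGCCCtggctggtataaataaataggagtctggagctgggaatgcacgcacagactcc
Cxcl12: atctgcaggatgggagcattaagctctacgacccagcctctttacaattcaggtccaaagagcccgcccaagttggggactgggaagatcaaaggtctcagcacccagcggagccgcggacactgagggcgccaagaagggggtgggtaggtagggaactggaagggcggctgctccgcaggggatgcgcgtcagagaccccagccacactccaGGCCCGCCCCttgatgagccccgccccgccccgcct
Ccl21a: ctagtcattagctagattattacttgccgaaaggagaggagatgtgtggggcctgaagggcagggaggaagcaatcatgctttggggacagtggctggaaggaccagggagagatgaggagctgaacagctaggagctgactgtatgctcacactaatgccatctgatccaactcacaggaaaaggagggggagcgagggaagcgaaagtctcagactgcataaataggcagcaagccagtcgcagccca
The match began 250 bases before the start in Ccl19 and 63 bases before it in Cxcl13, in both cases reading as a match on both strands. In Cxcl12 it began 36 bases before the start, on the reverse strand. No match was found in the windows of Ccl21a and Cxcr4. The motif was present in 45.4% of 27025 mouse promoter windows of this length, so its presence in 3 of the 5 genes that could be searched is a description only.

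RP held 18112 barcodes with 120909095 UMIs and 377P held 15466 barcodes with 127094166 UMIs. A UMI (unique molecular identifier) marks 1 captured mRNA. After filtering, 16721 cells of RP and 14515 of 377P remained, with medians of 4301 and 5102 UMIs, and 69 of these barcodes occurred in both libraries. Clustered together without batch correction, the libraries stood apart: 14 of 34 clusters drew at least 90% of their cells from 1 library, and library and title cannot be told apart. Cells were assigned to classes by markers that exclude the 7 genes. RP held 449 T cells and 420 B cells, and 377P held 1327 T cells and 2270 B cells. Levels are UMIs of a gene per 1000000 UMIs of all cells of a class (CPM), with exact 95% Poisson intervals, and shares of cells have exact 95% binomial intervals; ratios have the exact interval of a ratio of counts. These intervals cover counting error only.

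The epithelial class gave the level that free RNA in the droplets can produce, since keratinocytes are not a known source of these receptors. Ccr7 had 2.52 CPM in epithelial cells of RP and 12.8 CPM in those of 377P. Its level was much the same in fibroblasts, 1.97 CPM in RP and 12.8 CPM in 377P. Cxcr5 had 0.70 CPM in epithelial cells of RP and 3.42 CPM in those of 377P, and Cxcr4 had 3.32 CPM in those of RP and 6.32 CPM in those of 377P. The receptors were thus higher in cells without a lymphoid or myeloid identity in 377P, the library with more lymphocytes, and receptor values at these levels are read as background. For the ligands the epithelial level differed less. It was 1.70 CPM in RP and 2.07 CPM in 377P for Ccl19, and 14.1 CPM in RP and 10.7 CPM in 377P for Ccl21a. It was 0.92 CPM in RP and 1.52 CPM in 377P for Cxcl13, and 15.6 CPM in RP and 15.3 CPM in 377P for Cxcl12.

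**Figure D1:**
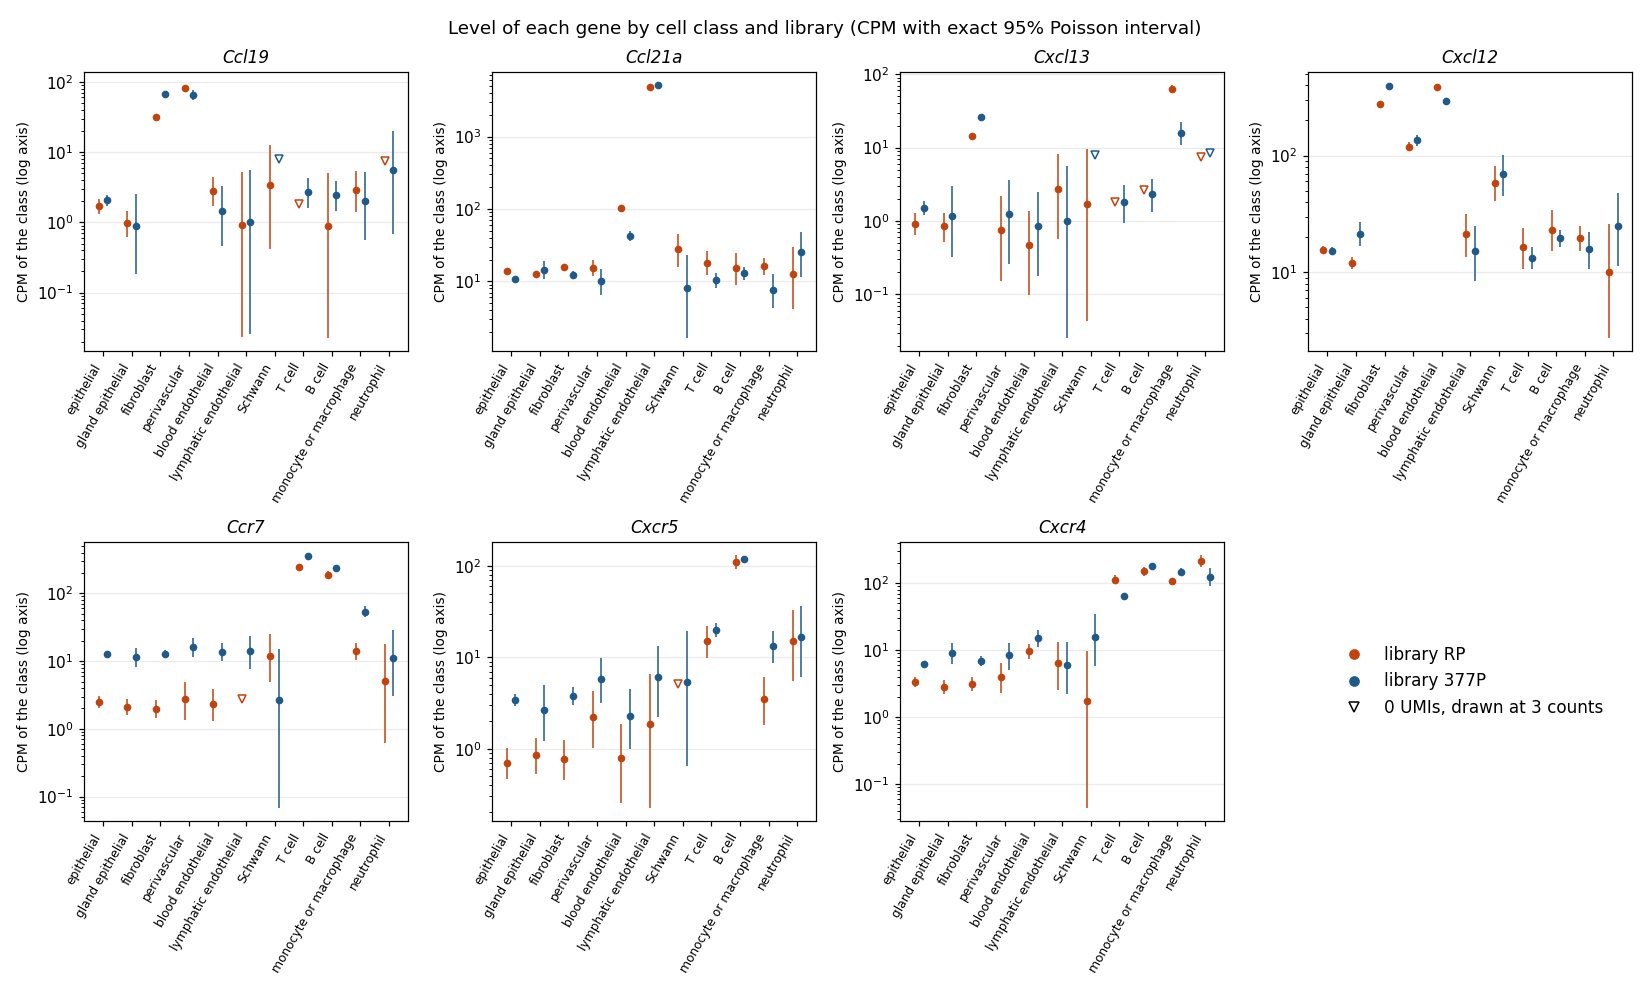
Level of each gene in 11 cell classes, in CPM on a log axis; points are library totals of RP (left of each pair) and 377P (right), bars are exact 95% Poisson intervals, and open triangles mark 0 UMIs at a floor of 3 counts. Ccl21a stands at 4817 CPM in lymphatic endothelial cells of RP and 5086 CPM in those of 377P, far above every other class shown.

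Ccl19, a Ccr7 ligand made in lymph nodes by T zone stroma, was found in fibroblasts and perivascular cells. Fibroblasts had 32.0 CPM in RP (29.7 to 34.5, 698 UMIs in 4040 cells) and 66.4 CPM in 377P (62.9 to 70.0, 1354 UMIs in 2694 cells). The RP level was 0.48 times that of 377P (0.44 to 0.53), and the intervals of the libraries did not overlap. Perivascular cells went the other way, with 82.2 CPM in RP (73.6 to 91.6) and 64.4 CPM in 377P (54.6 to 75.4), a ratio of 1.28 (1.05 to 1.56). Perivascular cells were therefore the highest class of RP, whereas in 377P their interval overlapped that of fibroblasts. The gates asked for no lead between these classes. Perivascular cells with Ccl19 also had more of the fibroblast marker Tnxb than those without. Counted as UMIs per cell, the perivascular levels were close (log2 ratio -0.014). A single cell held 42 of the 154 perivascular UMIs of 377P, and without the 3 highest cells of each library the log2 ratio was 0.79, against 0.35 with them.

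Among perivascular cells, pericytes carried more Ccl19 than smooth muscle. Pericytes had 163 CPM in RP (135 to 196) and 96.4 CPM in 377P (71.6 to 127), a ratio of 1.70 (1.21 to 2.41). Vascular smooth muscle cells had 64.8 CPM in RP and 55.6 CPM in 377P, with overlapping intervals. Among fibroblasts, all 3 subsets were lower in RP. Pi16-type fibroblasts, a perivascular and adventitial type named for the gene Pi16, had 34.8 CPM in RP and 69.0 CPM in 377P. Ligament-type fibroblasts, marked by Postn, Aspn and Scx, had 21.6 CPM in RP and 39.3 CPM in 377P. Fibroblasts of neither subset differed most, with 46.2 CPM in RP (37.9 to 55.8, 686 cells) and 166 CPM in 377P (146 to 188, 355 cells).

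Few cells carried most of the Ccl19. A UMI was found in 10.3% of fibroblasts of RP and 17.5% of those of 377P, against 1.38% and 2.56% of epithelial cells. With every cell thinned to 1000 UMIs the fibroblast shares were 2.94% in RP and 5.12% in 377P. In RP, 93 fibroblasts held at least 50% of the fibroblast UMIs of Ccl19, and in 377P 56 did. The highest fibroblast had 17 UMIs in RP and 48 in 377P.

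Ccl21a, a Ccr7 ligand, was mostly lymphatic, with the limit that its values may include some of Ccl21b. Lymphatic endothelial cells had 4817 CPM in RP (4688 to 4950, 210 cells) and 5086 CPM in 377P (4946 to 5228, 122 cells). Their ratio was 0.95 (0.91 to 0.98), the smallest departure from 1 among the classes taken as main source of the 7 genes. A UMI was found in 81.0% of lymphatic cells of RP and 81.1% of those of 377P, against 10.3% and 11.6% of epithelial cells. Lymphatic cells were 210 of 16721 kept cells in RP and 122 of 14515 in 377P, but held 69.9% of the Ccl21a UMIs of RP and 76.4% of those of 377P. The highest lymphatic cell had 234 Ccl21a UMIs in RP and 331 in 377P.

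Blood endothelial cells came next, with 102 CPM in RP (94.2 to 110) and 42.1 CPM in 377P (35.6 to 49.5), a ratio of 2.42. The UMIs lay in few cells. In RP, 526 of the 646 UMIs lay in 16 cells with at least 5 Ccl21a UMIs, and 15 of these 16 had 3 or more detected lymphatic markers. In 377P, 104 of the 147 UMIs lay in 5 such cells, 3 of them with 3 or more lymphatic markers. Of blood endothelial cells without Ccl21a, 14.5% in RP and 25.2% in 377P also had 3 or more. Against a log2 ratio of 1.27 by markers, leaving out the 3 highest cells of each library gave 2.03, keeping doublets gave 0.37 and grouping by clusters gave -0.58, so no direction is drawn for blood endothelium.

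A separate small group was visible in 377P. Glycam1 encodes a mucin-like adhesion molecule that is typical of high endothelial venules, the vessels by which lymphocytes enter lymph nodes. Cells with at least 20 Glycam1 UMIs, a limit set after the values had been seen, numbered 2 of 1508 blood endothelial cells in RP and 4 of 491 in 377P. The 2 cells of RP had no Ccl21a UMI. Of the 4 cells of 377P, 3 had Ccl21a, 44 UMIs in all and 31 in the highest, and the 4 cells had 0 UMIs of the lymphatic gene Mmrn1 and 1 of Prox1.

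Cxcl13, the Cxcr5 ligand, was found in a small number of fibroblasts and macrophages. Fibroblasts had 14.2 CPM in RP (12.6 to 15.9, 309 UMIs) and 26.1 CPM in 377P (24.0 to 28.5, 533 UMIs), a ratio of 0.54 (0.47 to 0.63). Macrophages or monocytes had 63.3 CPM in RP (55.2 to 72.3, 218 UMIs in 707 cells) and 15.8 CPM in 377P (10.7 to 22.4, 31 UMIs in 292 cells), a ratio of 4.02 (2.75 to 6.06). The intervals did not overlap in either class, and the directions were opposite. Without the 3 highest cells of each library the macrophage log2 ratio was 3.33, against 2.01 with them. It then rested on 107 UMIs in RP and only 6 in 377P. With clusters in place of markers the fibroblast log2 ratio was -1.89, against -0.88. The clusters gave fibroblasts of 377P 926 Cxcl13 UMIs, more than the 716 that the library held without its highest cell. That cell, which had no class by markers and is described below, was therefore counted as a fibroblast there. The macrophage values came from resident macrophages, marked by Mrc1, Folr2 and Cd163, which had 84.8 CPM in RP and 22.1 CPM in 377P. The other macrophages and monocytes had 0 Cxcl13 UMIs in 203 cells of RP and 1 UMI in 112 cells of 377P.

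Cxcl13 was the most unevenly spread of the 4 ligands. A UMI was found in 3.68% of macrophages of RP and 3.08% of those of 377P, and in 2.67% of fibroblasts of RP and 3.56% of those of 377P, against 0.81% and 1.62% of epithelial cells. In macrophages of RP, 3 cells held at least 50% of the UMIs, with 56, 36 and 19 UMIs. In macrophages of 377P, a single cell held 16 of 31. In fibroblasts, 19 cells of RP and 10 cells of 377P held at least 50%. Pi16-type fibroblasts were nearest between the libraries, with 21.3 CPM in RP and 27.7 CPM in 377P. Fibroblasts of neither subset had 12.4 CPM in RP and 109 CPM in 377P, where the highest cell had 59 UMIs.

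The most Cxcl13 of any cell was outside the classes. A single cell of 377P held 379 Cxcl13 UMIs among 13399, which is 34.6% of the 1095 Cxcl13 UMIs of that library. It had markers of several lineages and was left without a class, so that 36.7% of the Cxcl13 UMIs of 377P, and 2.61% of those of RP, fell in cells of no single class. The cell also had 20 UMIs of Cr2, a complement receptor, 112 of Clu, 190 of Mfge8, 26 of Vcam1, 15 of Ccl19 and 17 of Cxcl12, and 0 of the B cell gene Cd79a and the macrophage gene C1qa. Cr2, Mfge8 and Vcam1 are on the list of lymphoid stroma and follicular dendritic cell genes. Of other genes on that list the cell had 13 UMIs of Enpp2, 5 of Bst1, 4 of Madcam1, 1 of Tnfsf13b and 0 of Fcer2a and Icam1, and it was given no cell type name. In RP the highest cell was a macrophage with 56 Cxcl13 UMIs.

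**Figure D2:**
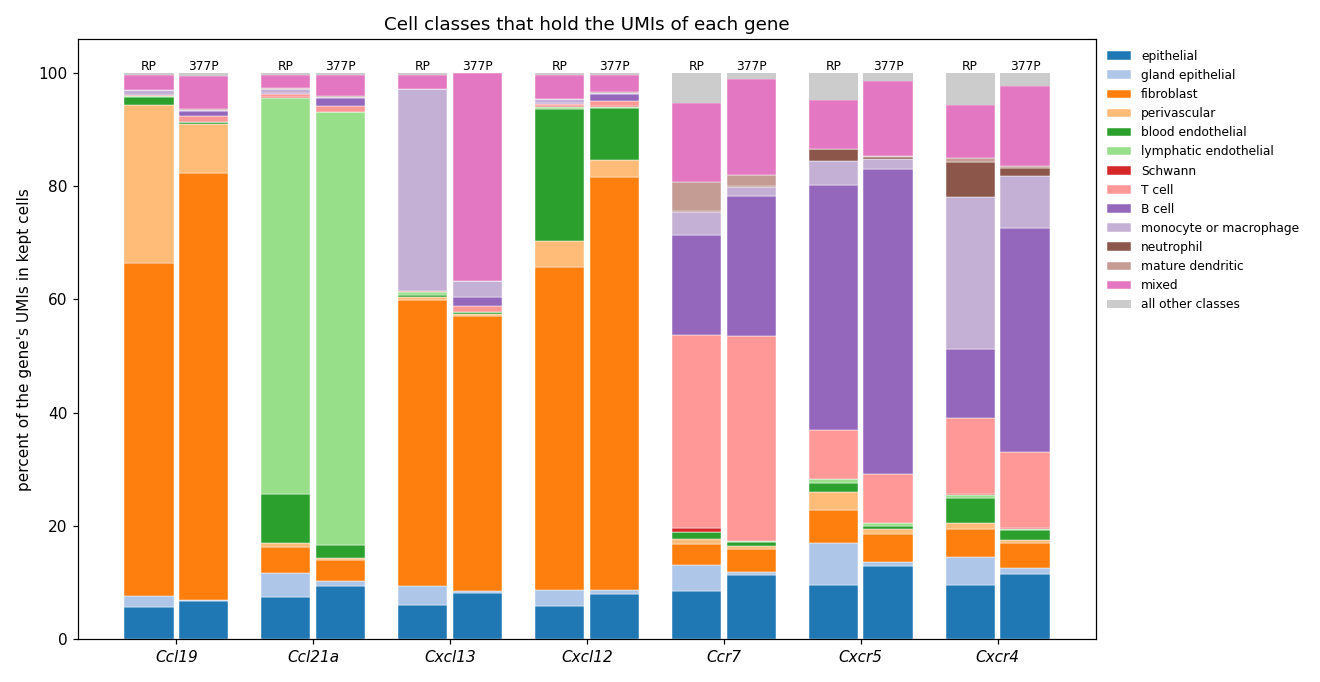
Percent of each gene's UMIs in kept cells that lie in each cell class, RP left and 377P right of each pair. Ccl21a was 69.9% lymphatic endothelial in RP and 76.4% in 377P, and Cxcl13 was 35.6% macrophage in RP and 2.83% in 377P.

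Cxcl12, the Cxcr4 ligand, was the most widely detected of the 4 ligands. Fibroblasts had 275 CPM in RP (268 to 282, 5995 UMIs) and 397 CPM in 377P (389 to 406, 8102 UMIs), a ratio of 0.69 (0.67 to 0.72). A UMI was found in 53.8% of fibroblasts of RP and 63.7% of those of 377P, against 10.5% and 14.2% of epithelial cells. Lower levels in RP were seen in Pi16-type fibroblasts (295 CPM in RP and 460 CPM in 377P), ligament-type fibroblasts (221 CPM in RP and 274 CPM in 377P) and the others (319 CPM in RP and 424 CPM in 377P). Perivascular cells had 119 CPM in RP and 135 CPM in 377P, with overlapping intervals.

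In blood endothelium, capillary cells were highest and the libraries differed by vessel type. Capillary cells had 1355 CPM in RP (1294 to 1419, 323 cells) and 784 CPM in 377P (708 to 865, 63 cells), a ratio of 1.73 (1.55 to 1.93). Arterial cells had 324 CPM in RP and 518 CPM in 377P, a ratio of 0.63 (0.53 to 0.74). Venous cells had 83.5 CPM in RP and 111 CPM in 377P, a ratio of 0.75 (0.64 to 0.89). Over the whole class, blood endothelial cells had 388 CPM in RP and 295 CPM in 377P, but capillary cells were 323 of 1508 in RP and 63 of 491 in 377P, so the class ratio of 1.31 mixes level and makeup. As UMIs per cell, the class was lower in RP (log2 ratio -0.36). Lymphatic endothelial cells, with 21.2 CPM in RP and 15.1 CPM in 377P, were near the epithelial level.

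**Figure D3:**
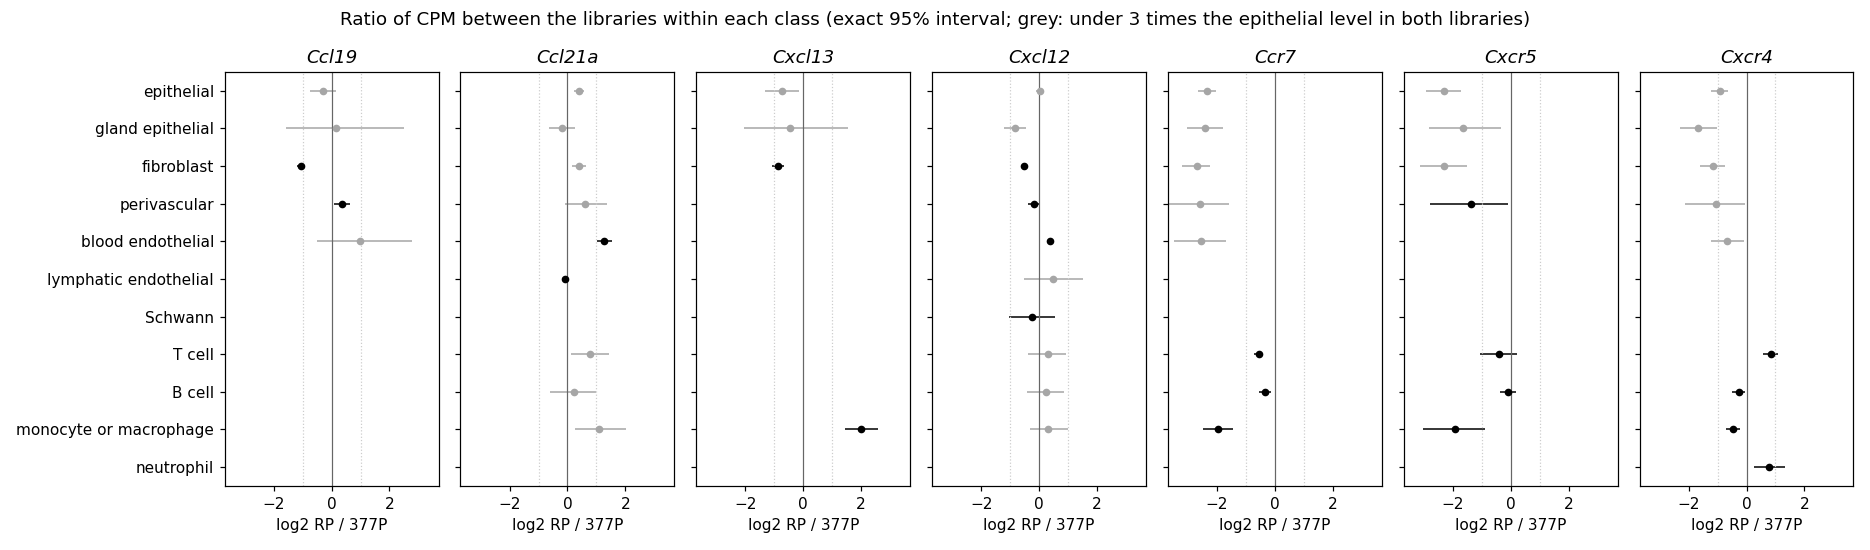
Log2 ratio of CPM, RP over 377P, for each gene (panels) and class (rows) with at least 20 UMIs over both libraries; bars are exact 95% intervals of a ratio of counts, and grey points are classes under 3 times the epithelial level in both libraries. The fibroblast points of Ccl19, Cxcl13 and Cxcl12 lie at -1.05, -0.88 and -0.53, and the macrophage point of Cxcl13 at 2.01.

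Ccr7, the receptor of Ccl19 and Ccl21a, was highest in the few cells gated as mature dendritic. Of their markers, Fscn1, Ccl22, Il4i1 and Cacnb3 were detected in 7, 6, 7 and 6 of 20 cells in RP. In 377P they were detected in 12, 9, 11 and 11 of 19 cells, and the B cell gene Cd79a in 2. No cluster had this class as its majority, so the cells bear the name by gate only. They had 818 CPM in RP (60 UMIs in 20 cells, 10 of them with Ccr7) and 976 CPM in 377P (134 UMIs in 19 cells, 12 of them with Ccr7). T cells had 241 CPM in RP (218 to 266) and 357 CPM in 377P (343 to 372), a ratio of 0.68 (0.61 to 0.75). B cells had 185 CPM in RP (161 to 212) and 235 CPM in 377P (224 to 247), a ratio of 0.79 (0.68 to 0.91). A UMI was found in 40.5% of T cells of RP and 64.8% of those of 377P, against 1.75% and 11.3% of epithelial cells. Thinned to 1000 UMIs, the T cell shares were 20.2% in RP and 26.4% in 377P.

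Within T cells, Ccr7 was highest in naive-like cells in both libraries. Naive-like T cells, marked by genes that include Lef1 and Tcf7, had 367 CPM in RP (327 to 411) and 411 CPM in 377P (393 to 429), and the interval of the ratio of 0.89 (0.79 to 1.01) held 1. Regulatory or activated T cells had 233 CPM in RP and 319 CPM in 377P. Gamma-delta or interleukin-17 T cells had 17.6 CPM in RP and 23.6 CPM in 377P, from 5 and 6 UMIs. Naive-like cells were 219 of 449 T cells in RP and 953 of 1327 in 377P. Macrophages had 13.9 CPM in RP and 53.9 CPM in 377P, a direction that was the same as that of the background in epithelial cells.

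Cxcr5, the receptor of Cxcl13, was highest in B cells and almost equal between the libraries there. B cells had 112 CPM in RP (93.0 to 133, 125 UMIs) and 120 CPM in 377P (112 to 128, 828 UMIs), and the interval of the ratio of 0.93 (0.77 to 1.13) held 1. T cells had 15.1 CPM in RP and 19.9 CPM in 377P, above the epithelial level in each library. Germinal centre B cells, marked by genes that include Bcl6 and Mef2b, had 96.1 CPM in RP (27 cells) and 81.4 CPM in 377P (97 cells), and their intervals overlapped those of the other B cells in RP but lay below them in 377P (64.2 to 102 against 117 to 135). Germinal centre cells had medians of 6083 UMIs in RP and 8819 in 377P, against 1936 and 2486 in other B cells. Whether this depth bears on their level was not tested. Follicular helper T cells use Cxcr5 to enter follicles. They had 4 UMIs in 22 cells of RP and 4 UMIs in 58 cells of 377P, too few to rank.

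Cxcr4, the Cxcl12 receptor, was found in all the immune classes that were compared, and the direction between the libraries differed by class. B cells had 152 CPM in RP (130 to 177) and 183 CPM in 377P (173 to 194), a ratio of 0.83 (0.70 to 0.97). T cells had 114 CPM in RP (98.0 to 131) and 63.8 CPM in 377P (57.9 to 70.1), a ratio of 1.78 (1.49 to 2.12). Macrophages had 108 CPM in RP (97.4 to 120) and 149 CPM in 377P (133 to 168), a ratio of 0.72 (0.62 to 0.85). Neutrophils had 216 CPM in RP (173 to 267) and 125 CPM in 377P (91.2 to 167), a ratio of 1.73 (1.19 to 2.54). Capillary cells had 23.0 CPM in RP and 29.8 CPM in 377P, above the epithelial level, with overlapping intervals.

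Within T cells, Cxcr4 differed between the libraries in some finer types and not in naive-like cells. Naive-like cells were 219 of 449 T cells in RP and 953 of 1327 in 377P. The T cell ratio of 1.78 therefore mixes level and makeup. Naive-like T cells had 53.7 CPM in RP (39.1 to 71.8) and 49.5 CPM in 377P (43.4 to 56.3). Gamma-delta or interleukin-17 T cells had 265 CPM in RP (208 to 332) and 153 CPM in 377P (109 to 209), a ratio of 1.73 (1.16 to 2.61). Regulatory or activated T cells had 152 CPM in RP (111 to 203) and 79.4 CPM in 377P (62.8 to 99.1), a ratio of 1.91 (1.29 to 2.79).

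**Figure D4:**
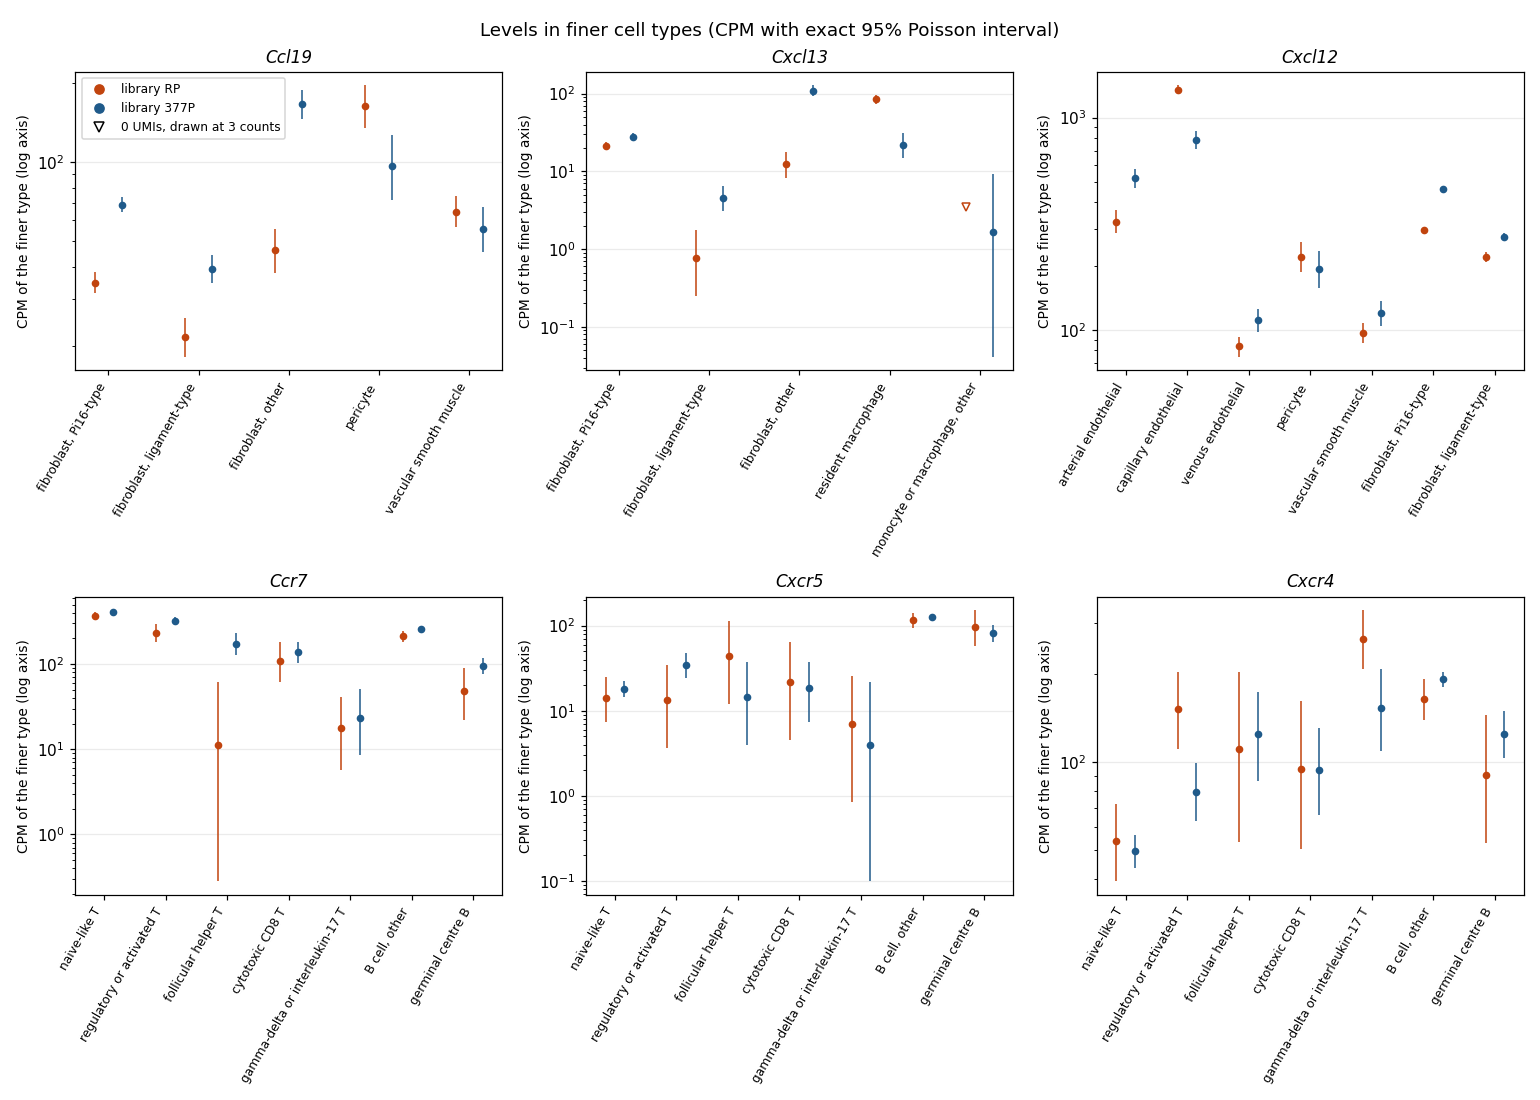
Levels of 6 genes in finer cell types, in CPM on a log axis; points are library totals of RP (left of each pair) and 377P (right), bars are exact 95% Poisson intervals, and open triangles mark 0 UMIs at a floor of 3 counts. Capillary endothelial cells reach 1355 CPM of Cxcl12 in RP and 784 CPM in 377P, and naive-like T cells hold 367 and 411 CPM of Ccr7.

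The number of genes past a 2-fold ratio was read against all genes with at least 20 UMIs in the class. In fibroblasts, 4 of the 7 genes were higher in 377P, where 2.89% of 16972 genes were, and none was higher in RP, where 3.94% of genes were. Ccl19 was the only ligand among the 4; Ccr7, Cxcr5 and Cxcr4 were at their epithelial levels. In perivascular cells the 3 receptors, of 6 genes measured, were higher in 377P, where 2.14% of genes were, and none was higher in RP, where 3.63% were. In epithelial cells Ccr7 and Cxcr5 were higher in 377P, where 2.94% of genes were, and none of the 7 in RP, where 6.66% were. In gland epithelial cells all 3 receptors were higher in 377P, where 9.75% of genes were, and none of the 7 in RP, where 3.51% were. In macrophages Cxcl13 and Ccl21a, of 6 genes measured, were higher in RP, where 5.7% of genes were, and Ccr7 and Cxcr5 in 377P, where 2.41% were. Macrophage Ccl21a was near background, at 16.3 CPM in RP and 7.62 CPM in 377P, from 56 and 15 UMIs. Its epithelial level was 14.1 CPM in RP and 10.7 CPM in 377P. In blood endothelial cells Ccl21a was higher in RP, where 4.06% of genes were, and Ccr7 in 377P, where 2.98% were. No measured gene of the 7 passed the 2-fold limit in the other 5 classes. In T cells, where 5 were measured, 6.38% of all genes were past it in RP and 3.3% in 377P. In B cells, also with 5 measured, 5.28% were past it in RP and 4.03% in 377P. The lymphatic endothelial shares, with 2 measured, were 2.94% in RP and 3.38% in 377P. With 1 measured in each, the Schwann shares were 4.42% in RP and 3.75% in 377P, and the neutrophil shares 8.08% in RP and 4.87% in 377P.

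Fibroblasts with Ccl19 also had more Cxcl13 and Cxcl12 than those without. Fibroblasts with at least 2 Ccl19 UMIs numbered 116 in RP and 203 in 377P. Cxcl13 was detected in 12.1% of these in RP and 14.8% in 377P, against 2.18% and 2.61% of fibroblasts without Ccl19. Their Cxcl12 level was 791 CPM in RP and 1028 CPM in 377P, against 240 CPM in RP and 294 CPM in 377P in fibroblasts without Ccl19. Their Ccl21a level was 14.8 CPM in RP and 13.2 CPM in 377P, against 16.0 CPM in RP and 11.6 CPM in 377P in those without, with overlapping intervals within each library. Cells with Ccl19 were deeper, with medians of 5464 UMIs in RP and 8423 in 377P, against 4551 and 6328 in those without.

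Perivascular cells with at least 2 Ccl19 UMIs, 60 in RP and 25 in 377P, had more Cxcl12 than the rest and no detected Cxcl13. Their Cxcl12 level was 348 CPM in RP and 335 CPM in 377P, against 86.2 CPM in RP and 115 CPM in 377P in perivascular cells without Ccl19. None had a Cxcl13 UMI, and the exact 95% intervals allow shares of cells with a UMI of up to 5.96% in RP and 13.7% in 377P. In perivascular cells without Ccl19 the share was 0.21% in RP and 0.69% in 377P, so these few cells set no difference apart. Fibroblasts with at least 2 Cxcl13 UMIs, 56 in RP and 49 in 377P, had Ccl19 in 26.8% of cells in RP and 53.1% in 377P, against 9.89% in RP and 16.7% in 377P of those without Cxcl13.

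**Figure D5:**
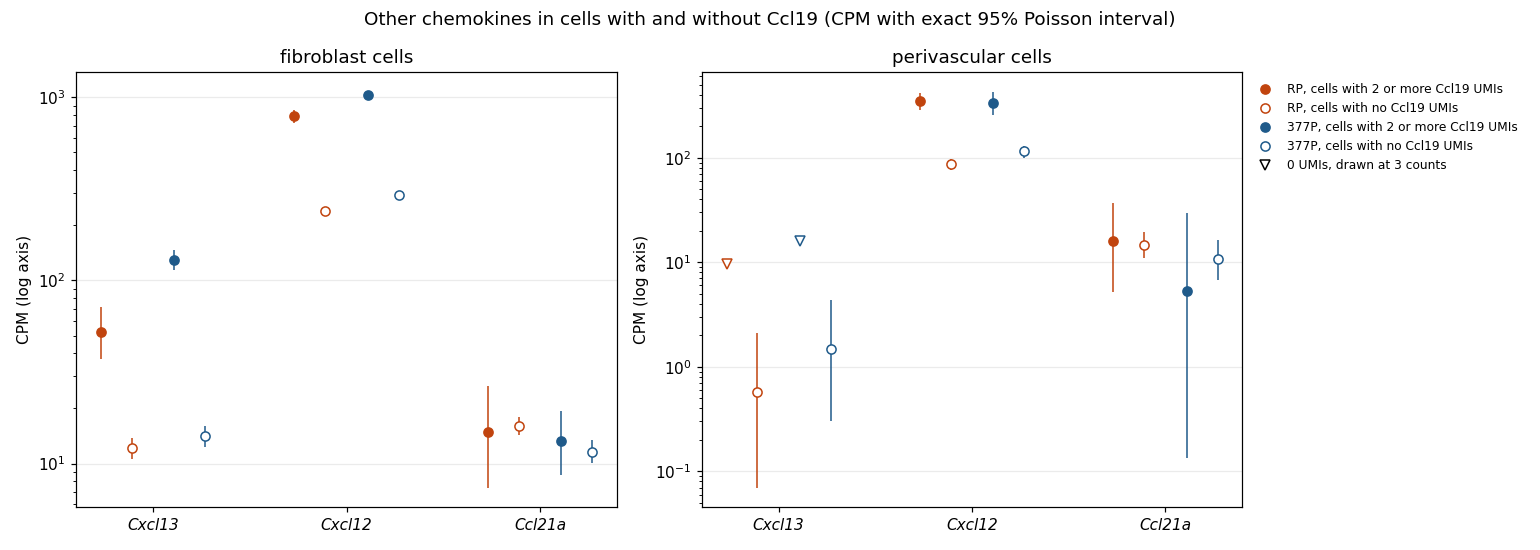
Levels of Cxcl13, Cxcl12 and Ccl21a in cells with at least 2 Ccl19 UMIs (filled points) and with none (open points), in fibroblasts (left panel) and perivascular cells (right panel), in CPM on a log axis with exact 95% Poisson intervals; RP is left of 377P for each gene, and open triangles mark 0 UMIs at a floor of 3 counts. In fibroblasts Cxcl12 was 791 CPM in RP and 1028 CPM in 377P with Ccl19, against 240 CPM in RP and 294 CPM in 377P without it.

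Among lymphocytes, T cells with a Ccr7 UMI had less Cxcr4 than those without, 76.3 against 146 CPM in RP and 47.5 against 104 CPM in 377P. In B cells with a Ccr7 UMI, Cxcr5 was 110 CPM in RP and 121 CPM in 377P, against 113 CPM in RP and 118 CPM in 377P in B cells without it. In B cells with a Cxcr5 UMI, Cxcr4 was 146 CPM in RP and 181 CPM in 377P, against 155 CPM in RP and 184 CPM in 377P in those without.

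The genes that stood out in cells with a given ligand, by the largest of the smaller ratios of the 2 libraries, differed by class. Of those named here, Tnxb, Irf8 and Mrc1 are also among the markers by which cells were sorted into classes. In perivascular cells with Ccl19 they were Ccl11, Colec11, Thbd, Gpm6b and Tnxb. The fibroblast marker Tnxb had 189 CPM with Ccl19 in RP and 218 CPM in 377P, against 28.0 and 32.0 CPM without it. Ccl11, which encodes the eosinophil chemokine eotaxin, had 4223 CPM in cells with Ccl19 in RP and 3406 CPM in 377P, against 320 and 332 CPM in cells without it. In fibroblasts with Ccl19, a class added after the rule, they were Apoe, Serpina3n, C4b, Ifi47 and Irf8. Apoe, which encodes a lipid carrier, had 3188 CPM in such cells of RP and 2835 CPM in those of 377P, against 669 and 718 CPM in cells without Ccl19. In macrophages with Cxcl13, only 14 cells in RP and 3 in 377P, they were Ccl8, Selenop, Slc9a9, Mrc1 and F13a1, and Ccl8, a chemokine of resident macrophages, had 3691 CPM in RP and 6382 CPM in 377P, against 459 and 322 CPM in cells without Cxcl13. In fibroblasts with Cxcl13, also an added class, they were Csmd1, Apoe, C4b, Serpina3n and Srgn. Apoe, Serpina3n and C4b, the gene of a complement component, stood on both fibroblast lists. For Cxcl12 in fibroblasts the rule gave Kif22, Cenpm, Trip13, Ces1g and Tnfsf13b, all under 12 CPM. For the other genes it gave Synm, Ggct, Rfx2, Xdh and Ddx58 with Ccl21a in lymphatic cells, Bend4, Rras2, Fam241a, Sidt1 and Pakap with Ccr7 in T cells, Basp1, Emb, Tubb5, Rgs1 and Lmnb1 with Cxcr5 in B cells, and Asprv1, Kpna4, Dennd4a, Xylt1 and Irak2 with Cxcr4 in neutrophils.

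Over the 22 profiles of 11 classes in 2 libraries, the genes whose log2(CPM + 10) pattern was most like that of each gene were found by Pearson correlation. These profiles share libraries and free RNA, and are not independent. Ccl19 was most like Tnmd (r = 0.98), Ccl21a like Prrt4 (0.99), Cxcl13 like Ccl8 (0.93), Cxcl12 like Sulf1 (0.97), Ccr7 like Il21r (0.97), Cxcr5 like H2-Ob (0.96) and Cxcr4 like Cd52 (0.98). The next genes were Pdgfrb and Tbx15 for Ccl19, Susd4 and Pkhd1l1 for Ccl21a, Cyp27a1 and Camk2a for Cxcl13, Mgp and Plpp3 for Cxcl12, Slamf6 and Tespa1 for Ccr7, Haao and BE692007 for Cxcr5, and Laptm5 and Coro1a for Cxcr4.

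Lymphotoxin signalling through Ltbr and the NF-kappaB subunits Relb and Nfkb2 is known to switch on Ccl19, Ccl21a and Cxcl13 in lymphoid stroma. In fibroblasts, 10 of the 12 genes of this axis were measured, 1 was past 2-fold higher in 377P and none in RP. Of all genes, 2.89% were past it in 377P and 3.94% in RP. The median log2 ratio of the axis was -0.21, against -0.02 over all genes. Ltbr had 26.9 CPM in RP and 29.2 CPM in 377P, and Relb 129 CPM in RP and 127 CPM in 377P. The gene past the limit was Ltb, a lymphocyte cytokine, at 1.24 CPM in RP and 5.20 CPM in 377P, which is the epithelial level (2.52 CPM in RP and 5.35 CPM in 377P). In T cells, all 12 were measured and 2, Tnfsf11 and Tnfsf14, were past 2-fold higher in RP, where 6.38% of all genes were. Tnfsf11, the gene of RANK ligand, had 71.3 CPM in RP and 16.6 CPM in 377P. Tnfsf14 had 5.44 CPM in RP and 2.09 CPM in 377P. Ltb had 172 CPM in T cells of RP and 143 CPM in those of 377P. In B cells, 10 were measured and Lta was past the limit in 377P, where 4.03% of all genes were. It had 0.89 CPM in RP, the level of 1 UMI in this class, and 3.47 CPM in 377P.

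Atypical receptors bind chemokines and take them up without the usual signalling. Ackr3, which takes up Cxcl12, had 612 CPM in lymphatic endothelial cells of RP and 614 CPM in those of 377P, and 330 CPM in fibroblasts of RP and 352 CPM in those of 377P. None of the 5 listed genes was past 2-fold in fibroblasts, and none of the 3 measured was in blood or lymphatic endothelial cells. In T cells 2 of 3 were past it in RP, where 6.38% of all genes were, Ackr1 at 7.86 CPM in RP and 2.84 CPM in 377P and Ccrl2 at 16.9 CPM in RP and 6.42 CPM in 377P. The same genes were past it in B cells, 2 of 3 against 5.28% of all genes, with Ackr1 at 11.6 CPM in RP and 5.34 CPM in 377P and Ccrl2 at 8.94 CPM in RP and 3.90 CPM in 377P. Ackr1, an endothelial gene at 273 CPM in RP and 285 CPM in 377P in blood endothelium, was also past it in macrophages, and Ackr3 was in Schwann cells. Of the genes of lymphocyte positioning and exit, 11 of 13 were measured in T cells. Of these 1, S1pr2, was past 2-fold higher in RP, where 6.38% of all genes were. It had 6.65 CPM in RP and 3.29 CPM in 377P. S1pr1, the receptor for exit from tissue, was lower in RP but within 2-fold, with 101 CPM in RP and 177 CPM in 377P. In B cells, 2 of 10 measured were past 2-fold higher in 377P, where 4.03% of all genes were. Gpr183 had 77.8 CPM in RP and 164 CPM in 377P. Ccr9 had 1.79 CPM in RP, from few UMIs, and 4.19 CPM in 377P. Gpr183 and Ccr6 were also past 2-fold higher in 377P in epithelial cells, at 1.67 and 0.37 CPM in RP and 7.95 and 2.07 CPM in 377P, and in fibroblasts, at 1.15 and 0.46 CPM in RP and 5.05 and 2.45 CPM in 377P.

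Of the lymphoid stroma and follicular dendritic cell genes, 14 were measured in fibroblasts. Of these 2, Cr2 and Fcer2a, were past 2-fold higher in 377P, where 2.89% of all genes were. Both were under 4 CPM in each library. Vcam1 and Icam1, the adhesion molecules of lymphoid stroma, were at 101 and 365 CPM in RP and 127 and 383 CPM in 377P. In blood endothelium, 9 of 11 genes of high endothelial venules were measured. Of all genes of this class, 4.06% were past 2-fold higher in RP and 2.98% in 377P. Chst4 was past 2-fold higher in RP, at 8.20 CPM in RP and 2.58 CPM in 377P, while Glycam1 (53.3 CPM in RP and 582 CPM in 377P) and Gcnt1 (3.79 CPM in RP and 8.31 CPM in 377P) were past it in 377P. The cells with at least 20 Glycam1 UMIs held 80.8% of the Glycam1 UMIs of this class in RP and 96.0% in 377P. Of the receptor signalling and trafficking genes, Rgs1, Dock2 and Rac2 were past 2-fold higher in 377P in fibroblasts, where 2.89% of all genes were, with 4.73, 7.94 and 3.86 CPM in RP and 11.8, 31.2 and 10.9 CPM in 377P. These genes stood far higher in T cells, where Dock2, a regulator of lymphocyte migration, had 736 CPM in RP and 709 CPM in 377P. In blood endothelium 4 of 11 were past the limit in 377P, where 2.98% of all genes were: Rgs1, Dpp4, Ccl20 and Rac2. In T cells 1 of 11 was past the limit, where 3.3% of all genes were, Ccl20, with 4.84 CPM in RP and 11.3 CPM in 377P. In B cells Ccl20 was likewise the 1 of 12, against 4.03% of all genes, with 2.68 CPM in RP, from few UMIs, and 12.1 CPM in 377P. Both are far below its epithelial level of 125 CPM in RP and 138 CPM in 377P.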

How the data were processed

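Single-cell libraries RP and 377P, made with the Chromium 3′ v3 kit per the labels' protocols, were analysed from the deposited matrices, whose values are unnormalized UMI counts for each gene in each barcode. Cell Ranger 7.0.1 made these matrices, per the file headers. STAR and the mm10 genome are named per the submitters' processing notes. No source used here gives the annotation or says whether introns were counted. Reads of near-identical copies can be lost or shared at alignment, and free RNA in droplets adds UMIs to every class.

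A barcode was taken as a cell if it had 200 genes or more and no more than 20% of its UMIs from mitochondrial genes. Doublets called by Scrublet in Scanpy 1.11.5 (expected share 12%) were removed: 569 in RP (3.29%) and 836 in 377P (5.45%). A cell joined a class if it had at least 3 detected markers of it and at least 1.25 times the support of any class of another lineage; other cells are mixed or without a class. Fibroblasts and perivascular cells count as the same lineage, so no such lead was needed between them. Finer types needed 2 markers. UMIs were summed per class and library, and the 11 classes with at least 50 cells in each library were compared. With 1 library per title, no test was possible and no p-value is given; a 2-fold ratio among genes with at least 20 UMIs in the class is the size used for counts.

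The 7 genes, the marker and pathway lists and the rules for named genes were chosen with earlier results of these data known. Named were, for each gene, the 3 genes most like it over class profiles and the 5 most raised in cells with at least 2 of its UMIs, among genes with at least 30 UMIs there. Of each list, up to 4 genes with the most UMIs or the largest ratio were named. The listed symbols Plap1, Fdcsp and P2ry8 had no entry under these names. Some listed genes are not reported here. The calculation of ratios was checked on simulated fibroblast sums with counting error only. Spread between cells was not simulated, so this check does not cover genes whose UMIs lie in few cells. Promoter sequences are RefSeq's (GRCm38.p6), found for 5 of the 7 genes, and coordinates are GENCODE's for GRCm38.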

Additional observations from a re-analysis of the deposited data

Results flagged for a closer look

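By markers and in CPM, the ratio between the libraries pointed in opposite directions in different classes in 5 of the 7 genes. For 3 of these this depended on the processing: Ccl21a in blood endothelial cells was -0.58 with clusters, and as UMIs per cell Cxcl12 in blood endothelial cells was -0.36 and Ccl19 in perivascular cells -0.014. The differences between classes were not tested, since each title has 1 library. The log2 ratio of Ccl19, RP over 377P, was 0.35 in perivascular cells and -1.05 in fibroblasts. That of Ccl21a was 1.27 in blood endothelial cells and -0.078 in lymphatic endothelial cells. That of Cxcl13 was 2.01 in macrophages or monocytes and -0.88 in fibroblasts. That of Cxcl12 was 0.39 in blood endothelial cells and -0.53 in fibroblasts, and that of Cxcr4 was 0.83 in T cells and -0.47 in macrophages or monocytes. Cells of no single class, which entered no comparison by markers, held 36.7% of the Cxcl13 UMIs of 377P, most of them in 1 cell with 379 UMIs. Without that cell the library held 716 Cxcl13 UMIs. Grouping by clusters counted that cell among fibroblasts.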

How the results depend on the processing

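For 1 class taken as the main source of each gene, 70 of 71 alternative log2 ratios kept their direction. Of the 71, 54 stayed within the counting error of the value reported and 17 moved beyond it. The classes were fibroblasts for Ccl19, Cxcl13 and Cxcl12, lymphatic endothelial cells for Ccl21a, T cells for Ccr7 and B cells for Cxcr5 and Cxcr4. In RP, other classes were above fibroblasts in CPM, perivascular cells for Ccl19, macrophages for Cxcl13 and blood endothelial cells for Cxcl12. Macrophages and T cells of RP held more Cxcr4 UMIs than B cells. As UMIs per cell in place of CPM, which does not correct for the deeper cells of 377P, the log2 ratio was -1.54 for Ccl19, -1.37 for Cxcl13 and -1.02 for Cxcl12 in fibroblasts, -0.73 for Ccl21a in lymphatic endothelial cells and -1.02 for Ccr7 in T cells. With every cell thinned to 1000 UMIs it was -0.51 for Cxcl13, -0.47 for Cxcl12, -0.16 for Ccl21a, and in B cells -0.67 for Cxcr5 and -0.53 for Cxcr4. As a mean over cells it was -0.85 for Ccl19 and -0.32 for Ccl21a. With clusters in place of gates it was -1.89 for Cxcl13, with the cell of 379 UMIs counted among fibroblasts, and -0.013 for Ccl21a. With doublets kept, and with a lead of 2 times over other lineages (added after seeing the data), it was -0.012 and -0.15 for Ccl21a. Leaving out cells with 2 or more detected markers of another lineage left almost no cells: it gave 1.07 for Cxcl12 in fibroblasts and no value for the other 6. Of the other 81 values, 78 kept their direction. The exceptions were Ccl21a in blood endothelial cells, which reversed to -0.58 with clusters, and, as UMIs per cell, Ccl19 in perivascular cells (-0.014) and Cxcl12 in blood endothelial cells (-0.36); leaving out the 3 highest cells of each library, also added after seeing the data, gave 3.33 for Cxcl13 in macrophages. The causes were not tested. Depth limits values from few UMIs, such as Cxcl13 in macrophages of 377P, with 31, or 6 without the 3 highest cells. No paired analysis was possible because each title has 1 library, so that the titles share only 1 replicate number.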
